A study of Mus musculus with 2 samples.

Results

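The Cyp2f2-high cells described here were adrenal cortical cells with 5 or more unique molecular identifiers (UMIs, each standing for 1 captured RNA molecule) of Cyp2f2. They numbered 157 of 2069 cortical barcodes in the 9-week library and 1563 of 4488 in the 6-week library, 1720 cells in all. A barcode was kept with at least 500 genes and at most 25% mitochondrial UMIs, which left 10527 of 10812 barcodes at 9 weeks and 8608 of 8880 at 6 weeks. It was taken as cortical where Hsd3b1, Cyp21a1, Star and Cyp11a1 together made up at least 0.5% of its UMIs and Ptprc, the pan-leukocyte gene, had none. The remaining 1912 cortical barcodes at 9 weeks and 2925 at 6 weeks are called other cortical cells. The cells were chosen by their measured UMIs of Cyp2f2, the 4 steroidogenic genes and Ptprc, so their levels describe the choice, and the comparisons of other genes between these cells and the rest are also given as descriptions.

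Both libraries came from female C57BL/6J mice of the genotype SF1-Cre+;Znrf3 Fx/Fx, in which Cre driven by the steroidogenic factor 1 gene removes Znrf3 from steroidogenic cells. Znrf3 is a membrane ubiquitin ligase that limits Wnt signalling. The 9-week library pooled 3 adrenals in the phase the study calls regression, and the 6-week library pooled 2 adrenals in the phase of hyperplasia. The study used the 2 ages to ask how the adrenal's immune environment differs after senescence is activated. All groups carry the Znrf3 deletion, and no library of intact Znrf3 was analysed here. With 1 library per age, a difference between ages cannot be told apart from a difference between the pools or the library preparations, and no test across animals was possible.

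Cyp2f2 encodes a cytochrome P450 monooxygenase best known from the club cells of the mouse airway and from liver, where it oxidises foreign aromatic compounds such as naphthalene. The adrenal cortex makes steroids in layers. The outer zona glomerulosa makes aldosterone through Cyp11b2 under Wnt and angiotensin control, the zona fasciculata makes glucocorticoid through Cyp11b1, and in mice an inner X zone marked by Akr1c18 and Pik3c2g persists in young females. The genes named with Cyp2f2 as markers of these cells have different roles: C3 is the central component of complement, Akr1d1 is the steroid 5β-reductase, and Adh1 is an alcohol dehydrogenase.

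In the mm10 genome, with gene positions from GENCODE M21, Cyp2f2 lies on the forward strand of chr7:27119909-27133660, C3 on the reverse strand of chr17:57203970-57228136, Akr1d1 on the forward strand of chr6:37530173-37568815 and Adh1 on the forward strand of chr3:138260991-138290698. The promoters of the gene that defines the cells and of the complement gene that came with it are shown from RefSeq (GRCm38.p6, the assembly of mm10), from 250 bases before to 50 bases after the start of transcription. The Cyp2f2 promoter is chr7:27119705-27120004 on the forward strand and the C3 promoter is chr17:57228087-57228386 on the reverse strand, each written 5′ to 3′ in the direction of the gene. Capitals mark AAGGNCA on either strand, the core letters bound by steroidogenic factor 1 and related receptors.
Cyp2f2: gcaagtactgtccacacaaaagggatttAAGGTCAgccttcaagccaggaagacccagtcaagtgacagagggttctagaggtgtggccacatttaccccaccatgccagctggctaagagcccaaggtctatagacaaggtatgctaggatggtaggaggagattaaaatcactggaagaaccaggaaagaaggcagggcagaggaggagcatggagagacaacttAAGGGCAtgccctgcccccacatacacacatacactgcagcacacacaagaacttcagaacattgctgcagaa
C3: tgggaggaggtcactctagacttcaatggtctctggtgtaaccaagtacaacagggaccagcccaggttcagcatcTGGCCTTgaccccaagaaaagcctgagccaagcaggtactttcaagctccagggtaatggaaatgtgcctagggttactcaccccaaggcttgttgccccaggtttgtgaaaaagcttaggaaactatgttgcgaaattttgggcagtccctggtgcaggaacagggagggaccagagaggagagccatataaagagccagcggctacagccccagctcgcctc
The Cyp2f2 promoter held AAGGNCA at 2 places, with first bases at -222 and -23 relative to the start, and the C3 promoter held 1 on the opposite strand at -174. Those of Akr1d1 and Adh1 held 0 matches. AAGGNCA stood in 20.3% of 32851 promoters of the same length, and ATCAAAG, the core letters of the Wnt effectors TCF and LEF, stood in 3.73% of them and in none of the 4. A match is a description of the letters and not a bound site. Cyp2f2 sits in a cluster of Cyp2 genes. Of the 27 protein-coding genes within 500 kb, Cyp2b23, Cyp2b19, Cyp2g1, Cyp2a5, Cyp2a22, Cyp2a12 and Cyp2t4 had 0 UMIs in Cyp2f2-high and in other cortical cells at both ages. Cyp2f2 was thus the one Cyp2 gene detected within that distance. Egln2, an oxygen-sensing prolyl hydroxylase gene nearby, had 109 CPM (UMIs of the gene per 1000000 UMIs summed over the group's cells) in Cyp2f2-high cells and 61.8 CPM in other cortical cells at 9 weeks, and 115 and 86.6 CPM at 6 weeks.

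The libraries held 99728879 UMIs at 9 weeks and 97001752 at 6 weeks, with medians of 7174.5 and 11540.0 UMIs per barcode in the files. The Cyp2f2-high cells were deeper: their median was 18657 UMIs at 9 weeks and 16347 at 6 weeks, against 14422 and 15258 in other cortical cells. A median Cyp2f2-high cell had 4563 genes and 7.36% mitochondrial UMIs at 9 weeks and 4215 genes and 7.11% at 6 weeks. Levels are UMIs summed over the cells of a group and given as CPM of that group's total. Intervals are exact 95% Poisson intervals for levels and exact Clopper-Pearson intervals for shares, and they cover counting error within a library only. A log2 ratio is that of (CPM + 5), and a gene was counted as higher or lower where it differed at least 2-fold among genes with 10 CPM in 1 of the groups and 10 UMIs over both. The libraries shared 29 barcodes, 7 of them cortical in both and 0 of them Cyp2f2-high in both. Of the Cyp2f2-high cells, 5.10% at 9 weeks and 5.37% at 6 weeks were called doublets by Scrublet, against 2.72% and 5.54% of other cortical cells.

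Cyp2f2-high cells made up 7.59% of cortical cells at 9 weeks (157 of 2069, 95% interval 6.48 to 8.81%) and 34.8% at 6 weeks (1563 of 4488, 33.4 to 36.2%). The 9-week share was 0.218 times the 6-week share (0.179 to 0.264). Of all kept barcodes they were 1.49% at 9 weeks and 18.2% at 6 weeks, while cortical cells as a whole were 19.7% and 52.1%. The shares of barcodes depend on which cells survived dissociation and the sort for viable cells, and fewer cells of a kind cannot be told apart from fewer of them passing those steps. With every cell thinned to 5000 UMIs, cells with 3 or more Cyp2f2 UMIs were 6.58% of cortical cells at 9 weeks and 31.6% at 6 weeks, a ratio of 0.208, so the ratio was much the same at 1 fixed depth. Thinning left out 93 cortical cells at 9 weeks and 111 at 6 weeks, of which 0 and 10 were Cyp2f2-high.

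Cyp2f2 varied widely among the cells above the boundary. A Cyp2f2-high cell had a median of 24 Cyp2f2 UMIs at 9 weeks (quartiles 12 and 47, highest 208) and 34 at 6 weeks (quartiles 17 and 62, highest 227), whereas 96.1% of other cortical cells at 9 weeks and 87.0% at 6 weeks had none. The counts ran on across the boundary without a gap: 8 cells at 9 weeks and 45 at 6 weeks had exactly 5 Cyp2f2 UMIs, and 6 and 30 cells had 4. Just inside, cells with 5 UMIs had C3 at 1120.5 CPM at 9 weeks and 1682 CPM at 6 weeks, and just outside, cells with 4 UMIs had 882 and 1458 CPM. Akr1d1 was 2964 CPM at 9 weeks and 2409.9 CPM at 6 weeks just inside and 2429 and 2221 CPM just outside, so C3 and Akr1d1 were high on both sides of the boundary. Of the barcodes below the steroidogenic share, 0.551% of 8167 at 9 weeks and 3.59% of 3849 at 6 weeks had any Cyp2f2 UMI, at median depths of 5515 and 3061 UMIs. Their highest counts were 16 UMIs at 9 weeks and 70 at 6 weeks, so these shares hold some barcodes rich in Cyp2f2 besides any free RNA.

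The markers named with Cyp2f2 set a wider group of cells apart than Cyp2f2 itself. C3 had 5 or more UMIs in 90.4% of Cyp2f2-high cells at 9 weeks and 95.5% at 6 weeks, but also in 19.4% and 51.8% of other cortical cells. These C3-positive other cells, 371 at 9 weeks and 1516 at 6 weeks, mostly had no Cyp2f2 UMI at all, 88.4% at 9 weeks and 81.2% at 6 weeks. Their Akr1d1 and Adh1 were close to those of the Cyp2f2-high cells. Akr1d1 was 2498 CPM in Cyp2f2-high cells and 1940.2 CPM in C3-positive other cells at 9 weeks, and 2826 and 2609.9 CPM at 6 weeks. Adh1 was 2705 and 2574 CPM at 9 weeks and 3172 and 3117 CPM at 6 weeks in the same order. Akr1d1 and Adh1, which were not used to form either group, thus marked both kinds of cell and differed by less than 2-fold between them. The difference in Cyp2f2 and the likeness in C3 follow from how the groups were chosen. The comparison with C3-positive cells was chosen after the levels had been seen.

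**Figure D1:**
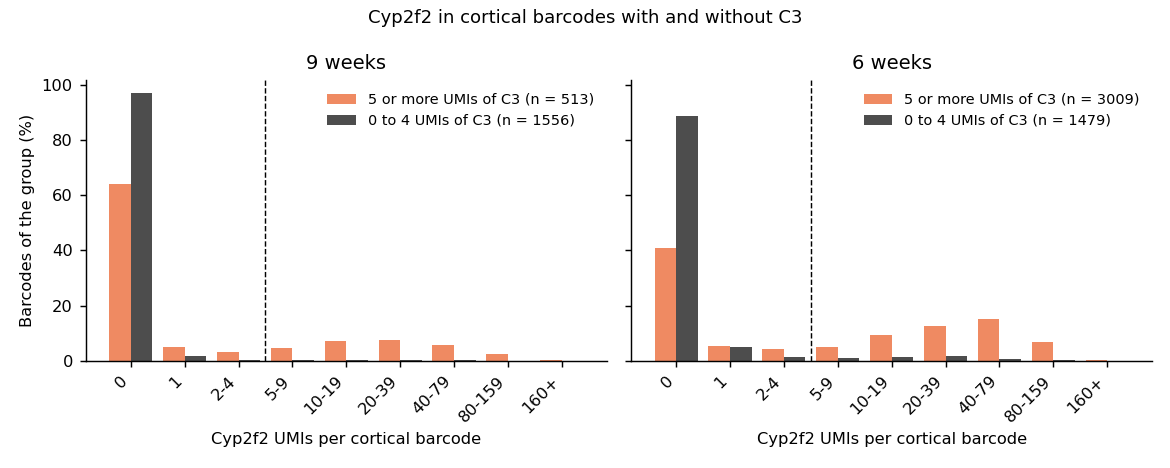
Share of cortical barcodes (%, y axis) by their Cyp2f2 UMIs (x axis, bins), at 9 weeks (left) and 6 weeks (right), for barcodes with 5 or more UMIs of C3 (orange) and with 0 to 4 (grey); the dashed line marks the boundary of 5 Cyp2f2 UMIs. Among C3-positive barcodes 328 of 513 had no Cyp2f2 UMI at 9 weeks and 1231 of 3009 at 6 weeks, and the rest spread over bins of unequal width up to 160 UMIs and more.

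The share of Cyp2f2-high cells within the C3-positive cortex also differed between ages. C3-positive cells were 24.8% of cortical cells at 9 weeks (22.9 to 26.7%) and 67.0% at 6 weeks (65.6 to 68.4%), a ratio of 0.370. Within them Cyp2f2-high cells were 27.7% at 9 weeks (142 of 513, 23.8 to 31.8%) and 49.6% at 6 weeks (1493 of 3009, 47.8 to 51.4%), a ratio of 0.558 (0.464 to 0.664). After thinning, with 2 C3 UMIs and 3 Cyp2f2 UMIs as the limits, these shares were 23.6% at 9 weeks (19.8 to 27.7%) and 44.8% at 6 weeks (43.0 to 46.7%). So Cyp2f2-high cells were a smaller part of the cortex at 9 weeks, and a smaller part of its C3-positive cells as well, by more than counting error in these libraries.

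Against all other cortical cells, the Cyp2f2-high cells had less RNA of zona glomerulosa, Wnt-target and imprinted genes at both ages, and at 9 weeks more of many cholesterol synthesis and some complement genes, few or none of which passed 2-fold at 6 weeks. At 9 weeks 256 genes were at least 2-fold higher (2.93% of 8725 measured) and 577 were lower (6.61%). At 6 weeks 28 were higher (0.334% of 8387) and 312 lower (3.72%), and the median log2 ratio over all measured genes was -0.04 at 9 weeks and -0.02 at 6 weeks. In both libraries 25 genes were higher (0.302% of 8286) and 304 lower (3.67%). The other cortical cells are a mixture that differs between ages, with 19.4% C3-positive cells at 9 weeks and 51.8% at 6 weeks.

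Besides Cyp2f2, 12 genes were higher in both libraries at 50 CPM or more and in at least 10% of cells. Cdh13, an atypical cadherin anchored by a lipid, was 63.5 CPM (95% interval 54.8 to 73.2) in Cyp2f2-high cells and 8.23 CPM in other cortical cells at 9 weeks, and 119 and 31.7 CPM at 6 weeks, log2 ratios of 2.37 and 1.76. Emb, the membrane glycoprotein embigin, was 52.1 and 8.30 CPM at 9 weeks and 69.4 and 18.2 CPM at 6 weeks. Cst8, a cystatin-family gene, was 239 and 32.9 CPM at 9 weeks and 145 and 48.5 CPM at 6 weeks. All 3 were several-fold higher in Cyp2f2-high cells at either age. Cd1d1, which presents lipid antigens to natural killer T cells, was 492 CPM in Cyp2f2-high cells and 76.2 CPM in other cortical cells at 9 weeks, and 380.2 and 151 CPM at 6 weeks. Thrsp, a regulator of fatty acid synthesis, was 157 and 28.4 CPM at 9 weeks and 257 and 115 CPM at 6 weeks. Appl2, Top1mt, Dapk1, Fdps, Vnn3, Slc7a8 and Amy1 completed the group, with log2 ratios of 1.66 to 2.37 at 9 weeks and 1.00 to 1.19 at 6 weeks. They encode, in order, an endosomal adaptor, the mitochondrial topoisomerase, a death-associated kinase, farnesyl diphosphate synthase, a vanin, an amino acid transporter and an amylase.

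**Figure D2:**
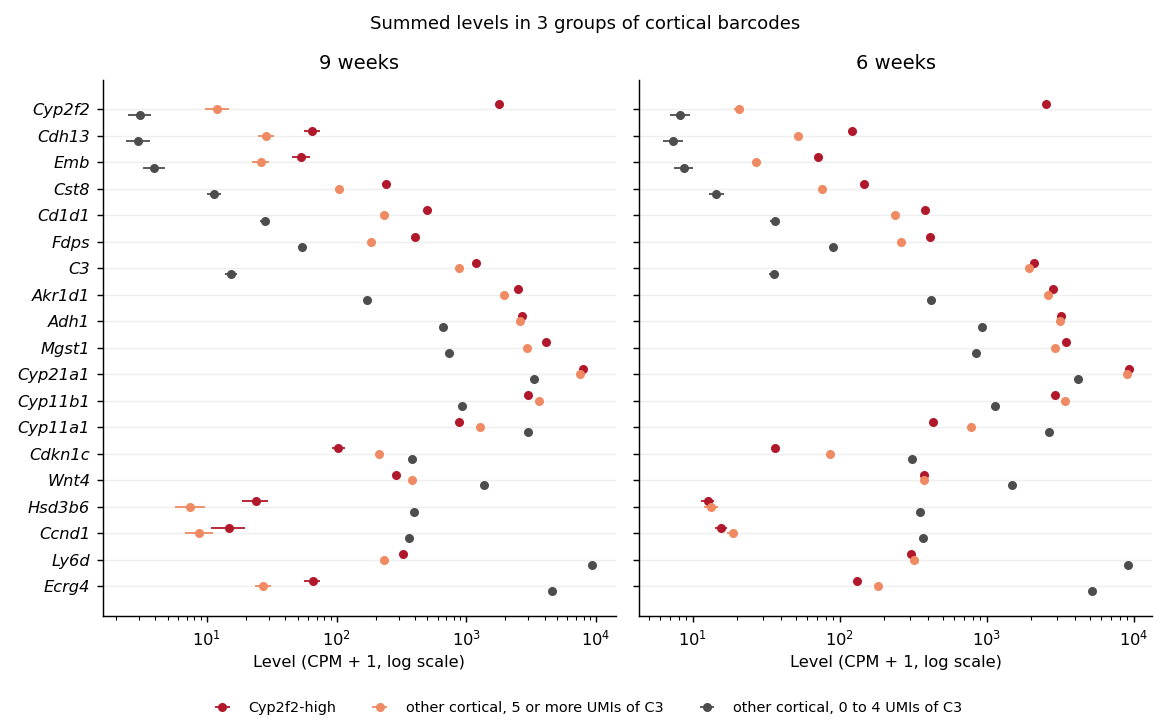
Levels of 19 genes (x axis, CPM + 1 on a log scale, bars 95% Poisson intervals) in Cyp2f2-high cells (red), in other cortical cells with 5 or more UMIs of C3 (orange) and in other cortical cells with 0 to 4 (grey), at 9 weeks (left) and 6 weeks (right). C3, Akr1d1 and Adh1 lie together in the red and orange groups, Cyp2f2 and Cdh13 are higher in the red group, Cdkn1c and Cyp11a1 are lowest there, and Ecrg4 and Ly6d are highest in the grey group by far.

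The 10 genes with the lowest ratios, of 89 that were lower by the same limits, included Hsd3b6 and Vsnl1 of the zona glomerulosa list. Ecrg4, which encodes a secreted peptide precursor, was 64.2 CPM in Cyp2f2-high cells and 3434 CPM in other cortical cells at 9 weeks, and 129.6 and 2329 CPM at 6 weeks. Ly6d, a membrane-anchored surface protein gene, was 323 and 7077 CPM at 9 weeks and 301 and 4090.5 CPM at 6 weeks. Hsd3b6, the 3β-hydroxysteroid dehydrogenase of the mouse zona glomerulosa, was 22.7 and 302 CPM at 9 weeks and 11.6 and 157 CPM at 6 weeks. Each was at least 10-fold lower in CPM in the Cyp2f2-high cells in both libraries. Ccnd1, the cyclin D1 gene and a Wnt target, was 13.7 CPM in Cyp2f2-high cells and 275 CPM in other cortical cells at 9 weeks, and 14.4 and 167 CPM at 6 weeks. Meg3 and Ndn are imprinted genes, Vsnl1 is a calcium sensor, Ldhb a lactate dehydrogenase, Cttnbp2 a cytoskeletal protein and Pde2a a cyclic nucleotide phosphodiesterase. Their log2 ratios ran from -4.01 to -3.74 at 9 weeks and from -3.38 to -3.10 at 6 weeks.

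A few Cyp2f2-high cells held most of the Ecrg4 and Ly6d RNA of the group. Cells with 5 or more Ecrg4 UMIs were 4 of 157 at 9 weeks (2.55%) and 44 of 1563 at 6 weeks (2.82%), a group chosen after its values were seen. Scrublet called 4 of the 4 and 35 of the 44 (79.5%) doublets, and their median depth was 35015 UMIs at 9 weeks and 28595 at 6 weeks. Without them the Cyp2f2-high level of Ecrg4 was 5.27 CPM at 9 weeks and 7.77 CPM at 6 weeks, that of Ly6d 43.9 and 38.7 CPM, and that of Hsd3b6 4.92 and 2.86 CPM. The drop in Ecrg4 follows from the choice of the cells removed, and the 905 other cortical cells at 9 weeks and 870 at 6 weeks with 5 or more Ecrg4 UMIs were kept.

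Zona glomerulosa, Wnt-target and imprinted lists were lower as well. Of 13 measured zona glomerulosa genes at 9 weeks 13 were lower in Cyp2f2-high cells, with a median log2 ratio of -2.52, and of 11 at 6 weeks 11 were lower, with a median of -2.03. Wnt4, the Wnt ligand of that zone, was 286 CPM in Cyp2f2-high cells and 1125 CPM in other cortical cells at 9 weeks, and 372 and 849 CPM at 6 weeks. Cyp11b2, the aldosterone synthase, was 2.34 and 19.6 CPM at 9 weeks and 2.47 and 11.9 CPM at 6 weeks. Both were lower, and Wnt4 RNA remained readily counted in Cyp2f2-high cells. Of the Wnt target list 7 of 11 measured genes were lower at 9 weeks (median -1.39) and 6 of 10 at 6 weeks (median -1.03). Axin2, a Wnt feedback inhibitor, was 17.4 CPM in Cyp2f2-high cells and 53.8 CPM in other cortical cells at 9 weeks, and 17.0 and 39.7 CPM at 6 weeks. Lef1, a nuclear effector of the pathway, was 4.01 and 48.6 CPM at 9 weeks and 2.28 and 27.4 CPM at 6 weeks. Of the imprinted genes 8 of 14 were lower at 9 weeks (median -1.45) and 6 of 13 at 6 weeks (median -0.58).

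Cholesterol synthesis was the metabolic list that stood highest. At 9 weeks 11 of 19 measured genes were at least 2-fold higher in Cyp2f2-high cells and 0 lower (median 1.14), and at 6 weeks 1 of 19 was higher and 0 lower (median 0.73). Hmgcs1, which makes the precursor of mevalonate, was 605 CPM in Cyp2f2-high cells (577 to 634) and 141 CPM in other cortical cells at 9 weeks, and 521 and 272 CPM at 6 weeks. Fdps was 403 and 84.7 CPM at 9 weeks and 406 and 186 CPM at 6 weeks. Idi1, the isopentenyl diphosphate isomerase, was 251 and 52.7 CPM at 9 weeks and 226 and 113 CPM at 6 weeks. For these 3 genes the Cyp2f2-high levels were alike at the 2 ages, and it was the level in other cortical cells that was lower at 9 weeks. Over the list the median log2 ratio of 9 over 6 weeks was -0.67 in other cortical cells and -0.33 in C3-positive other cells. The C3-positive share of other cortical cells also differed between ages. Of the fatty acid list 5 of 17 genes were higher and 1 lower at 9 weeks (median 0.74), and 1 of 16 was higher and 0 lower at 6 weeks (median 0.38).

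C3 was accompanied by other complement genes. It was 1183 CPM in Cyp2f2-high cells (1144 to 1222) and 226 CPM in other cortical cells (221 to 232) at 9 weeks, and 2097 and 1123 CPM at 6 weeks. C4b, which with C2 forms the classical convertase that cleaves C3, was 831 and 321 CPM at 9 weeks and 984 and 653 CPM at 6 weeks. Masp1, a protease of the lectin pathway, was 98.9 and 23.7 CPM at 9 weeks and 91.5 and 48.0 CPM at 6 weeks. Each was higher in Cyp2f2-high cells, more so at 9 weeks. Over the list 4 of 9 measured components were higher at 9 weeks and 0 lower (median 0.96), and 0 of 6 were higher or lower at 6 weeks (median 0.58). At 9 weeks the measured components include C1qa, C1qb and C1qc, which are also macrophage markers, and C1qa at a log2 ratio of 0.96 is the median. The macrophage marker sum was 224 CPM in Cyp2f2-high cells and 121 CPM in other cortical cells at 9 weeks, against 51.9 and 52.0 CPM at 6 weeks, and its part in the list was not tested. C4a was 530.4 and 212 CPM at 9 weeks and 626 and 419 CPM at 6 weeks, but C4a and C4b are near-identical copies and reads may be split between them.

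The enzymes that handle foreign compounds were not a block with Cyp2f2. The P450 and xenobiotic oxidation list had 10 measured genes, Cyp2f2 among them by the choice of the cells. Fmo1 and Aox1 were also higher at 9 weeks, Ephx1 was lower and the median was 0.46. Cyp51, higher too at 9 weeks, is a P450 of cholesterol synthesis and was also counted in that list. At 6 weeks no gene besides Cyp2f2 was higher or lower and the median was 0.14. Fmo1, a flavin monooxygenase, was 171 CPM in Cyp2f2-high cells and 37.9 CPM in other cortical cells at 9 weeks, and 239 and 118 CPM at 6 weeks. Ephx1, the microsomal epoxide hydrolase, ran the other way, with 43.1 and 148 CPM at 9 weeks and 57.7 and 119 CPM at 6 weeks. Por, the reductase that supplies electrons to microsomal P450s, was 98.6 and 106 CPM at 9 weeks and 148 and 142 CPM at 6 weeks, close in both groups. The glutathione and conjugation list had 4 higher and 4 lower of 23 at 9 weeks (median 0.35), and 0 higher and 2 lower of 22 at 6 weeks (median 0.17). Mgst1, a microsomal glutathione transferase, was higher, with 4077 CPM in Cyp2f2-high cells and 1270.1 CPM in other cortical cells at 9 weeks, and 3437 and 2028 CPM at 6 weeks. Alcohol, aldehyde and retinoid genes had 5 higher and 1 lower of 19 at 9 weeks (median 0.52) and 0 higher and 1 lower of 19 at 6 weeks (median 0.37).

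Among the steroidogenic genes Cyp11a1, Hsd3b6 and Cyp11b2 were lower by more than 2-fold at both ages. Cyp11b1, which makes corticosterone, was 3003 CPM in Cyp2f2-high cells and 1574 CPM in other cortical cells at 9 weeks, and 2885 and 2424 CPM at 6 weeks. Cyp11a1, the side-chain cleavage enzyme that starts steroid synthesis and 1 of the 4 genes of the cortical rule, was 873 CPM (839.9 to 907) and 2568 CPM at 9 weeks, and 426 CPM (418 to 434) and 1569 CPM at 6 weeks. The other 3 genes of the rule were level or higher: Cyp21a1, the 21-hydroxylase, was 7937 and 4346 CPM at 9 weeks and 9190.2 and 6952 CPM at 6 weeks. The log2 ratio of Cyp11a1 was -1.55 at 9 weeks and -1.87 at 6 weeks, past 2-fold, while those of Cyp11b1 (0.93 and 0.25) and Cyp21a1 (0.87 and 0.40) were within it. Mc2r, the receptor for adrenocorticotropic hormone, was 126 CPM in Cyp2f2-high cells and 303 CPM in other cortical cells at 9 weeks, and 110.0 and 216 CPM at 6 weeks. Nr5a1, which encodes steroidogenic factor 1, was 291 and 253 CPM at 9 weeks and 345 and 292 CPM at 6 weeks. Over the steroidogenesis list 1 of 16 genes was higher and 4 lower at 9 weeks (median -0.06), and 0 higher and 3 lower of 16 at 6 weeks (median 0.08).

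**Figure D3:**
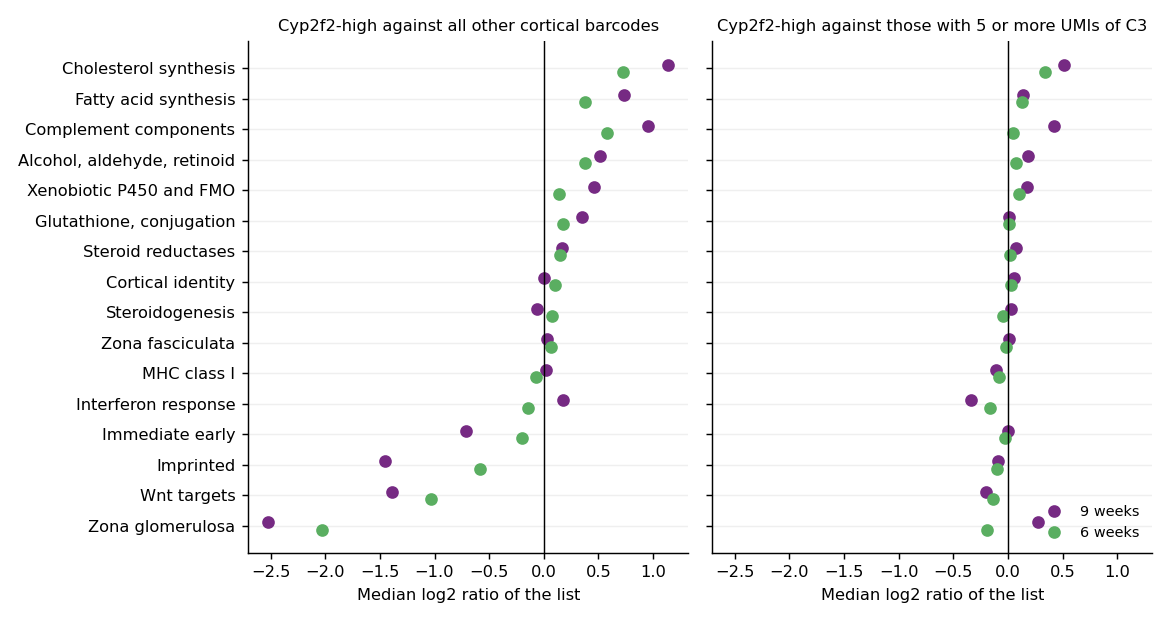
Median log2 ratio (x axis) of 16 gene lists in Cyp2f2-high cells over all other cortical cells (left) and over other cortical cells with 5 or more UMIs of C3 (right), at 9 weeks (purple) and 6 weeks (green). Zona glomerulosa lies at -2.52 and -2.03 on the left and at 0.28 and -0.19 on the right, while cholesterol synthesis is the highest list in both panels.

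Set against C3-positive other cells, nearly all of these differences were smaller than 2-fold. At 9 weeks 37 genes were higher (0.45% of 8214) and 6 lower (0.073%), and at 6 weeks 10 were higher (0.125% of 7997) and 3 lower (0.0375%). In both libraries 8 genes were higher (0.101% of 7888), namely Cyp2f2, Cdh13, Ankrd55, Fetub, Gpt2, Apoc1, Hamp and Pik3c2g, and 1 was lower (0.0127%), Cdkn1c. The median over all measured genes was -0.02 at 9 weeks and -0.01 at 6 weeks. At 9 weeks 4 of 6 measured macrophage markers were among the higher genes, and the macrophage marker sum was 224 CPM in Cyp2f2-high cells and 90.6 CPM in C3-positive other cells, against 51.9 and 57.4 CPM at 6 weeks. The part of this RNA in the 9-week count was not tested. The zona glomerulosa list had 1 higher and 0 lower of 5 at 9 weeks (median 0.28) and 0 of 6 either way at 6 weeks (median -0.19), so its large difference from other cortical cells as a whole did not appear against C3-positive ones. The higher gene was Hsd3b6, with 22.7 CPM in Cyp2f2-high cells and 6.43 CPM in C3-positive other cells. With called doublets removed from both groups it had 4.73 and 2.89 CPM, below the limit for measured genes, and the list had 0 of 4 either way at 9 weeks (median -0.50) and at 6 weeks (median -0.21).

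Cyp2f2 itself was 1783 CPM in Cyp2f2-high cells and 11.0 CPM in C3-positive other cells at 9 weeks, and 2502 and 19.6 CPM at 6 weeks, as the boundary requires. Cdh13 was 63.5 and 27.8 CPM at 9 weeks and 119 and 50.6 CPM at 6 weeks, log2 ratios of 1.06 and 1.16. It was detected in 42.0% of Cyp2f2-high cells and 25.1% of C3-positive other cells at 9 weeks, and in 65.1% and 37.2% at 6 weeks. Besides Cyp2f2 it was the one gene at 50 CPM or more in both libraries and 10% of cells that was higher by 2-fold in both. Cdkn1c, an imprinted inhibitor of the cell cycle, was 102 CPM (90.8 to 114) in Cyp2f2-high cells and 210.3 CPM in C3-positive other cells at 9 weeks, and 35.1 CPM (33.0 to 37.5) and 84.6 CPM at 6 weeks, log2 ratios of -1.01 and -1.16. Cells with a Cdkn1c UMI were 54.1% and 68.7% at 9 weeks and 28.5% and 43.9% at 6 weeks.

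Cyp11a1 kept its direction against C3-positive other cells but not the 2-fold size: it was 873 CPM in Cyp2f2-high cells and 1262 CPM in C3-positive other cells at 9 weeks, and 426 and 773 CPM at 6 weeks, log2 ratios of -0.53 and -0.85. Cyp11b1 was 3003 and 3605 CPM at 9 weeks and 2885 and 3385 CPM at 6 weeks, log2 ratios of -0.26 and -0.23. Srd5a2, a steroid 5α-reductase, was 127 and 271 CPM at 9 weeks and 302 and 390.1 CPM at 6 weeks, with log2 ratios of -1.06 and -0.36. Of these 3 enzymes only Srd5a2 at 9 weeks passed 2-fold. Over the steroidogenesis list 1 of 15 genes was higher (Hsd3b6) and 0 lower at 9 weeks (median 0.03), and 0 of 15 either way at 6 weeks (median -0.04). Cholesterol synthesis remained the highest of the plotted lists, with medians of 0.51 at 9 weeks and 0.34 at 6 weeks, and its genes past 2-fold were Idi1 and Fdps at 9 weeks and none at 6 weeks. Emb, Cd1d1 and Cyp7a1, the rate-limiting enzyme of bile acid synthesis in liver, had log2 ratios of 0.93, 1.09 and 0.84 at 9 weeks and 1.26, 0.67 and 1.24 at 6 weeks. Their levels were low to moderate: Cyp7a1 was 23.1 CPM in Cyp2f2-high cells and 10.7 CPM in C3-positive other cells at 9 weeks, and 39.97 and 14.0 CPM at 6 weeks.

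A handful of Cyp2f2-high cells expressed the X-zone genes Akr1c18 or Pik3c2g at high level. Cells with 5 or more UMIs of Akr1c18, the 20α-hydroxysteroid dehydrogenase, or of Pik3c2g, a class II phosphoinositide kinase, were 5 of 157 Cyp2f2-high cells at 9 weeks (3.18%, 1.04 to 7.28%) and 18 of 1563 at 6 weeks (1.15%, 0.684 to 1.81%). They were 2 of 1912 other cortical cells at 9 weeks (0.105%) and 3 of 2925 at 6 weeks (0.103%). This group, too, was chosen after its values were seen. Scrublet called 0 of the 5 and 1 of the 18 doublets, and their Cyp2f2 counts ran from 18 to 57 UMIs at 9 weeks and from 5 to 79 at 6 weeks.

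In these X-gene cells Akr1c18 was 3022 CPM at 9 weeks and 3566 CPM at 6 weeks, and Pik3c2g was 2245 and 1545 CPM. Hamp, the iron hormone hepcidin, was 4857 and 4205 CPM, and Apoc1, a lipoprotein component, was 6584 and 7564 CPM. Single cells carried much of this: at 9 weeks Hamp and Apoc1 were each found in 3 of the 5 cells, and 1 cell held 590 of 610 Apoc1 UMIs and 1 held 339 of 450 Hamp UMIs. At 6 weeks Hamp was found in 16 and Apoc1 in 17 of the 18 cells, and 1 cell held 670 of 1618 Akr1c18 UMIs. Among the other Cyp2f2-high cells Akr1c18 was 1.38 CPM at 9 weeks and 1.31 CPM at 6 weeks, Pik3c2g 0.690 and 0.337 CPM, Hamp 15.2 CPM at both ages, and Apoc1 32.1 and 33.5 CPM. A few cells thus held nearly all the Akr1c18 and Pik3c2g RNA, as their choice favours, and most of the Hamp and Apoc1 RNA. They also had C3 at 1684 and 2642 CPM and Star, the cholesterol transfer protein, at 3734 and 2885 CPM. Cyp11b1 had 0 UMIs in the 5 cells at 9 weeks, which allows up to 39.8 CPM by the exact Poisson bound, and 760.3 CPM in the 18 cells at 6 weeks. Thrb and Mme, also on the X-zone list, went opposite ways. Thrb was 151 CPM in X-gene cells and 101 CPM in the other Cyp2f2-high cells at 9 weeks, and 311 and 104 CPM at 6 weeks. Mme had 0 UMIs (up to 39.8 CPM) against 28.3 CPM at 9 weeks, and 15.4 against 46.1 CPM at 6 weeks.

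Leaving these cells out of the Cyp2f2-high group moved the comparison with C3-positive other cells. The drop in Pik3c2g follows from the choice of the cells left out, and such cells among the C3-positive other cells were kept. Pik3c2g then had log2 ratios of 0.19 at 9 weeks and -0.27 at 6 weeks, and Gpt2, an alanine aminotransferase, 0.92 and 0.57, so both were inside 2-fold. Apoc1 had 1.68 and 0.85, past 2-fold at 9 weeks only. Cdh13 (1.11 and 1.18), Ankrd55 (2.02 and 1.21), Fetub (2.55 and 1.24) and Hamp (1.93 and 1.35) stayed past 2-fold in both libraries. Hamp rested on very few of the remaining cells. At 9 weeks 1 of 152 cells held 43 of its 44 UMIs. At 6 weeks 15 of 1545 cells had any, and the top 10 cells held 98.8% of its 405 UMIs. Ankrd55, an ankyrin-repeat gene, and Fetub, the secreted protease inhibitor fetuin B, were 60.4 and 46.6 CPM in the Cyp2f2-high cells that remained at 9 weeks, against 11.1 and 3.80 CPM in C3-positive other cells. The few X-gene cells also weighed on Fdps at 9 weeks: they had it at 3605 CPM, with 146 of their 334 UMIs in 1 cell, and without them the Cyp2f2-high level of Fdps was 301 CPM at 9 weeks and 361.5 CPM at 6 weeks. Hmgcs1 and Idi1 moved less, to 577 and 223 CPM at 9 weeks. Against all other cortical cells the log2 ratio of Fdps was then 1.77 at 9 weeks and 0.94 at 6 weeks, so it was within 2-fold at 6 weeks.

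Among themselves, Cyp2f2-high cells had less Cyp11a1 and less Wnt4 RNA the higher their Cyp2f2 share was. This is a description, since Cyp2f2 and Cyp11a1 both chose the cells. They were divided by the share of Cyp2f2 in their UMIs at 0.125% and 0.296%, the tercile limits over both libraries, low to high. At 9 weeks these terciles held 71, 55 and 31 cells, and at 6 weeks 502, 518 and 543. Median depths were 19081, 18626 and 17956 UMIs at 9 weeks and 16508.5, 16595.5 and 15924 at 6 weeks, so the terciles were of like depth. Cyp11a1 was 1087, 733 and 598 CPM at 9 weeks and 620.4, 418.5 and 229.8 CPM at 6 weeks. Wnt4 was 365, 261 and 138 CPM at 9 weeks and 422, 366 and 326 CPM at 6 weeks. Cdkn1c was 133, 96.5 and 35.3 CPM at 9 weeks and 52.1, 33.1 and 19.5 CPM at 6 weeks. All 3 genes were lower at each step in both libraries. Doublet calls lay more in the low tercile. From low to high they numbered 5, 2 and 1 at 9 weeks, and 37, 31 and 16 at 6 weeks. With these removed Cyp11a1 was 1045, 680.3 and 619 CPM at 9 weeks and 524, 357 and 219 CPM at 6 weeks, and Wnt4 was 324, 246 and 142 CPM at 9 weeks and 372, 330.0 and 317 CPM at 6 weeks, in the same order as before.

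Other genes were higher along the same order. Cd1d1 was 314, 568 and 791.5 CPM at 9 weeks and 298, 373 and 473.5 CPM at 6 weeks. Mgst1 was 3054, 4742 and 5399 CPM at 9 weeks and 3158, 3472 and 3693 CPM at 6 weeks. Cebpb, a transcription factor of metabolic and acute-phase genes, was 1531, 1931 and 2128 CPM at 9 weeks and 1705, 1862 and 2048 CPM at 6 weeks. C3 graded at 9 weeks alone, with 912, 1340.3 and 1565 CPM, against 2030.2, 2184 and 2076 CPM at 6 weeks. Between high and low terciles 84 genes were at least 2-fold higher and 286 lower of 8428 at 9 weeks, from few cells, and 3 were higher (Cyp2f2, Emb and the lipocalin-family gene Obp2a) and 38 lower of 8030 at 6 weeks. Cholesterol synthesis had 6 of 20 higher at 9 weeks (median 0.88) and 0 of 19 at 6 weeks (median 0.18). The X-gene cells were kept in the terciles, and their part in this difference was not tested. Zona glomerulosa genes were lower for 6 of 6 at 9 weeks and for 4 of 7 at 6 weeks. Called doublets were kept in these counts, which were not repeated without them. Ly6d, which is not on that list, was 469, 302 and 1.76 CPM at 9 weeks and 518, 276 and 102 CPM at 6 weeks. With doublets removed Ly6d was 12.9, 18.8 and 1.83 CPM and 229, 10.3 and 11.7 CPM, no longer lower at each step.

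**Figure D4:**
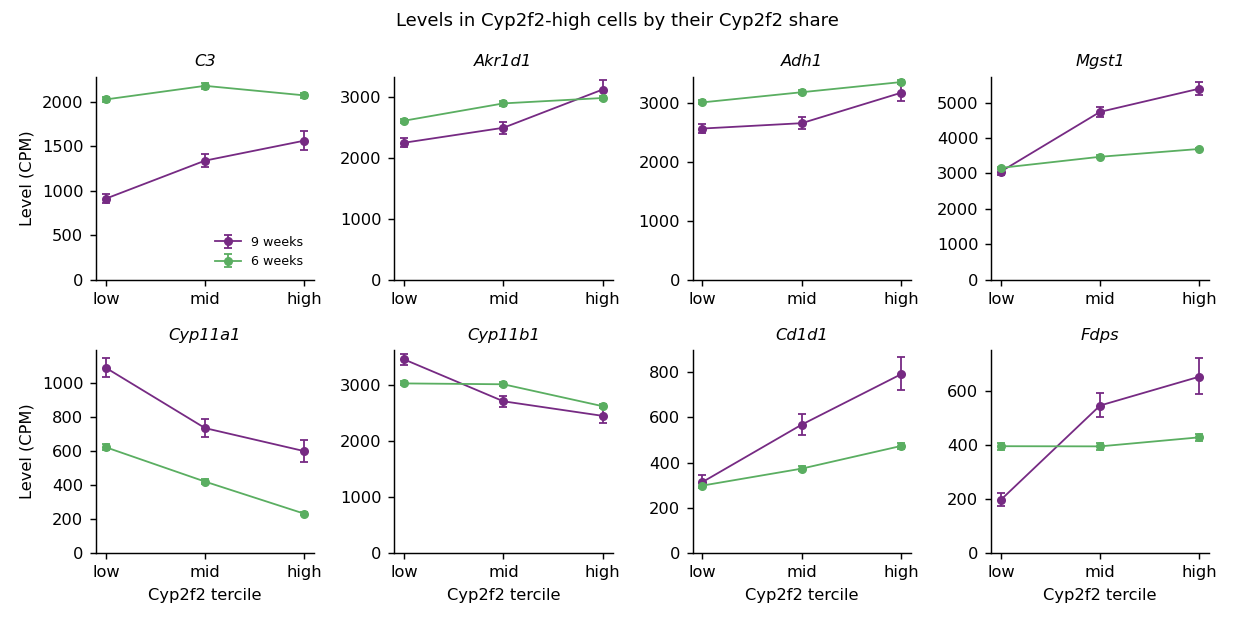
Levels (y axis, CPM, bars 95% Poisson intervals) of 8 genes in Cyp2f2-high cells by tercile of Cyp2f2 share (x axis, low to high), at 9 weeks (purple) and 6 weeks (green). Cyp11a1 is lower and Cd1d1 and Mgst1 are higher at each step in both libraries, while Fdps grades at 9 weeks from 197 to 654 CPM and stays between 395 and 429 CPM at 6 weeks. The 5 X-gene cells, kept in the terciles, held 334 of the 1207 Fdps UMIs at 9 weeks.

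Cell by cell, after thinning to 5000 UMIs, the same relations were weak. Across 157 cells at 9 weeks and 1553 at 6 weeks, Pearson's r of log Cyp2f2 was -0.26 and -0.22 with Cyp11a1, 0.34 and 0.17 with Mgst1, 0.31 and 0.18 with Cd1d1, and 0.18 and 0.07 with C3. For Wnt4 r was -0.15 at 9 weeks and -0.02 at 6 weeks, almost no relation at 6 weeks. The cells share a library and counting noise lowers these values. Markers of macrophages graded too: 6 of 6 were lower in the high than in the low tercile at 9 weeks (median -1.95), and 0 of 3 at 6 weeks (median -0.43), and their part in the other gradients was not tested.

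Between ages, Cyp2f2-high cells kept the levels of most genes. At 9 weeks 44 genes were higher than at 6 weeks (0.54% of 8146) and 17 lower (0.209%), with a median log2 ratio of 0.04 over all genes. Other cortical cells had 64 higher and 64 lower (0.745% of 8592 each), and C3-positive other cells 33 higher (0.405% of 8144) and 21 lower (0.258%). In Cyp2f2-high cells Cyp2f2 itself was 1783 CPM at 9 weeks (1735 to 1831), against 2502 CPM at 6 weeks (2484 to 2521). C3 was 1183 CPM at 9 weeks and 2097 CPM at 6 weeks in Cyp2f2-high cells, a log2 ratio of -0.82, and 883 and 1937 CPM in C3-positive other cells. Akr1d1 and Adh1 had log2 ratios of -0.18 and -0.23 in Cyp2f2-high cells, and -1.47 and -0.95 in other cortical cells, where the share of C3-positive cells also differed between ages.

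Antigen presentation and interferon-inducible genes led the genes that were higher at 9 weeks. Iigp1, an interferon-inducible GTPase, was 64.8 CPM at 9 weeks and 11.6 CPM at 6 weeks in Cyp2f2-high cells, and 58.7 and 35.6 CPM in other cortical cells. B2m, the light chain of MHC class I, was 1075 and 334 CPM in Cyp2f2-high cells and 878 and 395 CPM in other cortical cells. H2-K1 and H2-D1, class I heavy chains, were 1525 and 928 CPM at 9 weeks and 629 and 344 CPM at 6 weeks in Cyp2f2-high cells, and 1257 and 749 CPM at 9 weeks and 642 and 358 CPM at 6 weeks in other cortical cells. All 4 passed 2-fold in Cyp2f2-high cells, and B2m and H2-D1 did in other cortical cells, where the log2 ratio of Iigp1 was 0.65 and that of H2-K1 0.96. Of 18 measured class I genes 7 were higher and 0 lower in Cyp2f2-high cells (median 0.77), 5 in other cortical cells (median 0.67) and 8 in C3-positive other cells (median 0.84). Of 28 interferon-response genes 3 were higher in Cyp2f2-high cells, Oasl2, Iigp1 and Rtp4 (median 0.59), 0 of 27 in other cortical cells (median 0.29) and 5 of 28 in C3-positive other cells (median 0.65). So the C3-positive other cells had list medians at least as high as the Cyp2f2-high cells.

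RNA of other cell types moved with age in these cells. Summed over 8 macrophage markers it was 224 CPM at 9 weeks and 51.9 CPM at 6 weeks in Cyp2f2-high cells, 121 and 52.0 CPM in other cortical cells, and 15117 and 13980 CPM in non-cortical barcodes. All 6 measured macrophage markers (median 1.66) and all 5 measured MHC class II genes (median 1.97) were higher at 9 weeks in Cyp2f2-high cells, and the part of such RNA in the age differences was not tested. In an alternative, barcodes with 3 or more UMIs summed over the markers of other cell types were removed. This left 74 Cyp2f2-high cells at 9 weeks and 1444 at 6 weeks. Between ages B2m then had a log2 ratio of 1.70, class I genes a median of 0.74 and interferon genes 0.71. Endothelial markers were 42.8 CPM at 9 weeks and 58.2 CPM at 6 weeks in Cyp2f2-high cells, lymphoid markers 3.01 and 1.55 CPM and neutrophil markers 71.9 and 5.78 CPM. The medulla markers Th, Dbh, Chga and Pnmt had 0 UMIs at 9 weeks, and the medulla list came to 0.334 CPM at 9 weeks and 1.14 CPM at 6 weeks.

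**Figure D5:**
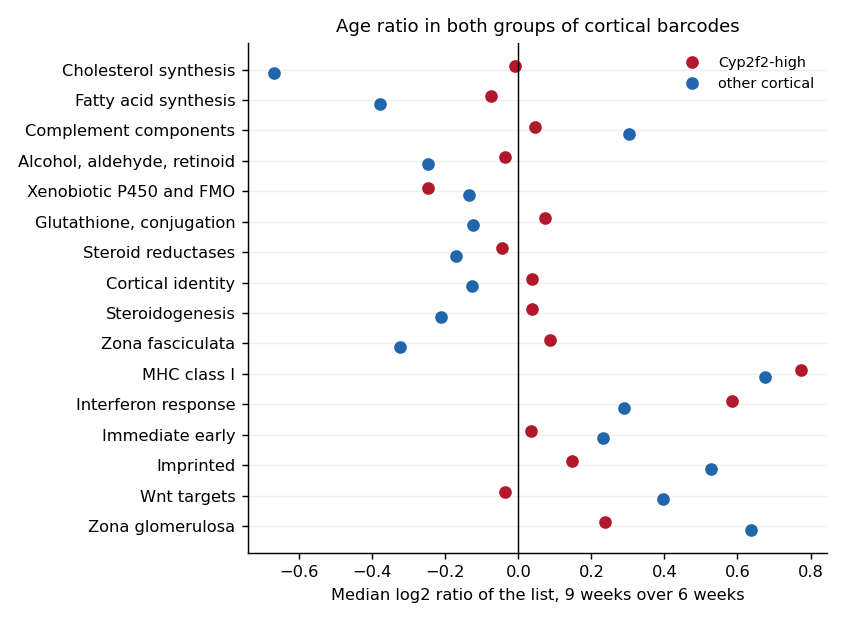
Median log2 ratio of 9 over 6 weeks (x axis) for 16 gene lists in Cyp2f2-high cells (red) and other cortical cells (blue). MHC class I lies at 0.77 and 0.67, interferon response at 0.59 and 0.29, and cholesterol synthesis at -0.01 and -0.67. In C3-positive other cells, which are not plotted, cholesterol synthesis was at -0.33.

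Several steroid and growth genes differed with age as well. Akr1b7, an aldo-keto reductase of the fasciculata, was 259.7 CPM at 9 weeks and 92.6 CPM at 6 weeks in Cyp2f2-high cells, and 506 and 305 CPM in other cortical cells. Cyp11a1 was 873 and 426 CPM in Cyp2f2-high cells, a log2 ratio of 1.03, and 2568 and 1569 CPM in other cortical cells, a ratio of 0.71. Cdkn1c was 102 and 35.1 CPM in Cyp2f2-high cells and 338 and 179.9 CPM in other cortical cells. All 3 passed 2-fold with age in Cyp2f2-high cells, whereas in other cortical cells their log2 ratios were within it, at 0.72, 0.71 and 0.89, a difference between the groups that was not tested. In C3-positive other cells Cdkn1c passed 2-fold as well, with 210.3 and 84.6 CPM and a log2 ratio of 1.26. Akr1b7 and Cyp11a1 did not pass it there. Col5a3, a fibrillar collagen chain, was 212 CPM at 9 weeks and 77.8 CPM at 6 weeks in Cyp2f2-high cells, against 150.2 and 78.2 CPM in C3-positive other cells and 50.6 and 51.0 CPM in all other cortical cells. Id1, an inhibitor of helix-loop-helix factors, Peg10, an imprinted gene, and H2-Q4 had log2 ratios of 1.42, 1.21 and 1.54 in Cyp2f2-high cells.

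Among the genes lower at 9 weeks, Pttg1, which encodes securin, was 3.01 CPM at 9 weeks and 62.2 CPM at 6 weeks in Cyp2f2-high cells, and 10.9 and 74.8 CPM in other cortical cells. Neat1, the long noncoding RNA of paraspeckles, was 25.4 and 142 CPM in Cyp2f2-high cells and 8.19 and 108 CPM in other cortical cells. A2m, a broad protease inhibitor, was 120.0 and 297 CPM and 29.1 and 153 CPM in the same order. These genes were lower at 9 weeks in both groups. Srd5a2 was 127 and 302 CPM in Cyp2f2-high cells, a log2 ratio of -1.22, and 120.5 and 296 CPM in other cortical cells, a ratio of -1.26. Dbp, a circadian transcription factor, Adhfe1, a mitochondrial transhydrogenase, and Cryba4, a crystallin, had log2 ratios of -1.20, -1.08 and -1.04 in Cyp2f2-high cells.

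Senescence genes, the subject of the study's question, were more often lower than higher in these cells, as were measured genes as a whole. Of all measured genes 2.93% were higher and 6.61% lower than in other cortical cells at 9 weeks, and 0.334% and 3.72% at 6 weeks. Of the 11 measured secreted senescence genes 1 was higher and 6 were lower than in other cortical cells at 9 weeks (median -1.22), and 0 higher and 5 lower of 12 at 6 weeks (median -0.79). Against C3-positive other cells 0 differed 2-fold at either age, with medians of -0.14 and -0.06. Cdkn1a, which encodes p21, was 22.7 CPM in Cyp2f2-high cells and 29.6 CPM in other cortical cells at 9 weeks, and 20.5 and 26.7 CPM at 6 weeks. Against other cortical cells the p53 and senescence list had 1 higher and 4 lower of 19 at 9 weeks (median -0.15). At 6 weeks it had 0 higher and 4 lower of 19 (median -0.19). Between ages, 1 of 16 measured p53 and senescence genes was higher in Cyp2f2-high cells at 9 weeks (Cdkn1c) and 1 was lower (Cdkn2a, log2 ratio -1.33). The same genes passed 2-fold in C3-positive other cells, Cdkn1c at 1.26 and Cdkn2a at -1.02.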

How the data were processed

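The authors deposited UMI count matrices, 1 per library, made with Cell Ranger 6.0.1 per the file headers, and mm10 and Seurat are named in the submitters' processing notes. The annotation release and the Seurat version are not given in the sources used here. Per the labels' protocols, adrenals were pooled, digested and lysed of red blood cells, viable cells positive for DyeCycle Ruby and negative for DAPI were sorted, and libraries were made with Chromium 3′ v3.1 chemistry. Nothing was normalized in the deposited counts.

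The 32285 file rows were summed to 32245 symbols with Python 3.11.15, numpy 2.4.6, scipy 1.17.1 and pandas 2.3.3. Scrublet in scanpy 1.11.5 marked doublets at an expected 0.8% per 1000 barcodes, and doublets were kept except in an alternative. edgeR 4.0.16 served only for TMM scaling in an alternative. Figures were drawn with matplotlib 3.10.9. Groups were summed to CPM and compared with a pseudocount of 5 CPM, without a test, since each age had 1 library. The code was tested on simulated data.

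Genes were named by a rule: at least 50 CPM, 30 UMIs and 10% of cells in the higher group, a 2-fold difference of the same sign in both libraries (or, between ages, in Cyp2f2-high cells), and at least 20% of the level in non-cortical barcodes, up to 15 higher and 10 lower. Other genes come from 39 lists of pathways and cell types. The cells, lists and rules were chosen with earlier results of these data known. The C3-positive comparison, the cells with X-zone genes, the cells with Ecrg4 and the promoter letters were chosen after their values were seen, as was the removal of doublets from that comparison and from the terciles of Cyp2f2 share, and the genes named from that comparison outside the rule likewise.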

Additional observations from a re-analysis of the deposited data

Results flagged for a closer look

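Akr1c18, the X-zone 20α-hydroxysteroid dehydrogenase, differed with age in opposite directions in the 2 kinds of cortical cell: its log2 ratio of 9 over 6 weeks was 0.60 in Cyp2f2-high cells and -3.22 in other cortical cells. The difference was not tested, since each age had 1 library. Its level was 94.9 CPM at 9 weeks and 60.9 CPM at 6 weeks in Cyp2f2-high cells, and 0.428 and 45.6 CPM in other cortical cells. At 6 weeks 2 other cortical cells held 2031 of that group's 2051 Akr1c18 UMIs, and without the 3 cells with 5 or more UMIs of Akr1c18 or Pik3c2g the group had 0.445 CPM, against 0.143 CPM at 9 weeks without 2 such cells. Without such cells Cyp2f2-high cells had 1.38 CPM at 9 weeks and 1.31 CPM at 6 weeks.

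Barcodes with 5 or more Cyp2f2 UMIs but also a Ptprc UMI were outside the definition of the cells and numbered 22 at 9 weeks and 86 at 6 weeks. They were 12.2% of all barcodes with 5 or more Cyp2f2 UMIs at 9 weeks and 5.19% at 6 weeks. Scrublet called 13 of them (59.1%) at 9 weeks and 68 (79.1%) at 6 weeks doublets. Their macrophage markers summed to 5937 CPM at 9 weeks and 3786 CPM at 6 weeks, against 224 and 51.9 CPM in Cyp2f2-high cells, and their C3 was 989 and 1641 CPM. Their median depth was 25777 UMIs at 9 weeks and 20760.5 at 6 weeks.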

How the results depend on the processing

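Each age had 1 library of pooled adrenals, so no p-value or replicate spread bears on any value, and intervals cover counting error only. No paired analysis was possible because each age had 1 library, and no library could be left out in turn. At 9 weeks the 157 Cyp2f2-high cells gave fewer UMIs than the 1563 cells at 6 weeks, which limits low genes. Named genes kept their direction and their distance under most of the settings run: 652 values of named genes moved little, 286 moved and 19 reversed, and of the list medians 1189 moved little, 169 moved and 3 reversed.

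TMM scaling in place of total UMIs shifts every log2 ratio by 0.08 at 9 weeks and 0.06 at 6 weeks against other cortical cells, and between ages by -0.09 in Cyp2f2-high cells and -0.11 in other cortical cells. With a pseudocount of 20 CPM, which lowers the ratios of low genes by construction, 129 genes were higher and 270 lower than in other cortical cells at 9 weeks, 15 and 112 at 6 weeks, and 23 and 9 between ages in Cyp2f2-high cells. Against C3-positive other cells it gave 13 higher and 1 lower at 9 weeks and 5 and 0 at 6 weeks, and a pseudocount of 1 CPM gave 19 lower at 9 weeks. The genes lower at 9 weeks than at 6 weeks were 26 with barcodes holding other cell types' markers removed and 41 with cells thinned to 5000 UMIs, and the cause was not tested. Against C3-positive other cells, 20 genes were higher at 9 weeks without the Akr1c18 or Pik3c2g cells, 13 were lower at 9 weeks and 5 at 6 weeks without doublets, and 36 and 5 without barcodes holding other cell types' markers, again with the cause not tested.

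Other choices of comparison cells changed the counts by construction. Higher genes at 6 weeks were 43 against other cells with 0 Cyp2f2 UMIs and 44 against those with 2 or more Wnt4 UMIs. Against other cells with 0 Wnt4 UMIs (67 cells at 9 weeks and 208 at 6 weeks) 102 genes were higher and 171 lower at 9 weeks, and 11 and 19 at 6 weeks. At 6 weeks this choice reversed the medians of zona glomerulosa genes (0.52) and Wnt targets (0.21), and the log2 ratios of Ccnd1 (0.82), Ecrg4 (2.96), Fdps (-0.14), Hsd3b6 (1.09), Ldhb (0.51), Ly6d (2.76), Ndn (0.90), Pde2a (0.51) and Vsnl1 (1.17). Against C3-positive other cells the counts were 37 and 6 at 9 weeks and 10 and 3 at 6 weeks. At 9 weeks this reversed zona glomerulosa genes (0.28), Ccnd1 (0.55), Cttnbp2 (0.31), Ecrg4 (1.14), Hsd3b6 (1.28), Ldhb (0.45), Ly6d (0.47), Meg3 (0.78), Ndn (0.25), Pde2a (0.12) and Vsnl1 (0.59). With called doublets removed from both groups these reversals were gone except for Hsd3b6 (0.30, under 10 CPM): Ecrg4 was -1.09, Ly6d -2.93, Meg3 -1.35, Ccnd1 -0.23, Cttnbp2 -0.86, Ldhb -0.79, Ndn -0.55, Pde2a -0.96, Vsnl1 -0.35 and the zona glomerulosa median -0.50. The 6-week library did not follow the same way. There the removal took Ecrg4 from -0.47 to 0.42 and Ly6d from -0.07 to 0.13, while Meg3 was -0.29 and then -0.22. The rest of these genes were then below the limit for measured genes at 6 weeks. The comparison with C3-positive other cells and its alternatives were chosen after seeing the data.

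The share of Cyp2f2-high cells among cortical cells was 36.7% at 6 weeks with a limit of 3 Cyp2f2 UMIs, 6.38% at 9 weeks and 31.0% at 6 weeks with 10, 6.28% and 32.1% with 0.05% of UMIs, 9.23% and 37.7% with cortical cells taken at 1% steroidogenic UMIs, and 31.6% at 6 weeks after thinning.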
